A study of Mus musculus with 4 samples.

Results

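Hspa1a, Hspa1b, Hsp90aa1, Hsph1 and Dnajb1 are 5 genes of the heat shock response, chosen by name and read here as 5 of the 11407 genes in both single-cell expression tables of a mouse mammary tumour study. The study injected control plasmid or IL-12 plasmid into tumours, electroporated them, pooled the tumours of 3 mice per treatment, sorted live CD45+ (white blood) cells and made 1 droplet 5′ expression library and 1 T cell receptor library per treatment. All cells therefore came from tumours that had been injected, electroporated and dissociated, and there were no untreated tumours among the groups. The labels differ on the tumour: the growth protocol describes spontaneous tumours after HER2 was induced in the mammary tissue of mice aged 1 month, the series title names triple-negative tumours, and the library names inside the tables name 4T1, a mouse mammary carcinoma line.

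Heat shock chaperones bind unfolded proteins. Under stress the transcription factor HSF1 binds repeats of the letters GAA and TTC in front of these genes and raises their transcription within minutes, so that dissociation of a tissue can raise them as well as stress in the animal. Hspa1a and Hspa1b are near-identical neighbouring genes for the inducible chaperone HSP70. Dnajb1 encodes HSP40, which delivers client proteins to HSP70, Hsph1 encodes HSP110, which exchanges the nucleotide of HSP70, and Hsp90aa1 encodes the inducible form of HSP90, which matures kinases and receptors and is abundant also in unstressed cells.

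In GENCODE M21 on GRCm38, Hspa1a lies on chromosome 17 from 34969190 to 34972156 and Hspa1b from 34956436 to 34959238, both on the minus strand, each with 1 exon and with 9951 bases between them. Hsp90aa1 lies on chromosome 12 from 110690605 to 110702728, Hsph1 on chromosome 5 from 149614287 to 149636376, both on the minus strand, and Dnajb1 on chromosome 8 from 83608193 to 83612653 on the plus strand. The 250 bases in front of the Hspa1a and Hspa1b starts are shown because the 2 genes differed in the data while these windows hardly differ. They were taken from RefSeq on GRCm38.p6, are written 5′ to 3′ on the genes' minus strand, lie outside the genes' annotated exons, and carry the motif GAANNTTC in capitals.
Hspa1a, chr17:34972157-34972406: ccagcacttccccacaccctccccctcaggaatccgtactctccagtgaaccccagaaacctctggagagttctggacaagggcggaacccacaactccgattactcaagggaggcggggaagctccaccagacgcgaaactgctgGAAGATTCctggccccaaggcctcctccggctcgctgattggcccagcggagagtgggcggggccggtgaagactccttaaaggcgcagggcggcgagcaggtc
Hspa1b, chr17:34959239-34959488: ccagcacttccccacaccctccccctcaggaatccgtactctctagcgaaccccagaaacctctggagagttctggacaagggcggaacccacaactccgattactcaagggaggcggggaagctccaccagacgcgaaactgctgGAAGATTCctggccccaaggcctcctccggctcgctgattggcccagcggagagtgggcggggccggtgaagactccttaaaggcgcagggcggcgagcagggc
The windows were identical at 247 of 250 bases. The substitutions from Hspa1a to Hspa1b, counted from 1 at the 5′ end of the window, were C44T, T47C and T249G, and none of them touches the motif, which starts at base 147 in both.

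The motifs searched were GAANNTTC and TTCNNGAA, each its own reverse complement, and a longer form, in which either is followed after 2 bases by 1 more GAA or TTC so that the 3 units alternate, which overlaps both. Of 32851 windows of this length, 6.69% held GAANNTTC, 7.17% held TTCNNGAA and 0.466% held a longer form. Besides the GAANNTTC of Hspa1a and Hspa1b, a TTCNNGAA was found in both Hsph1 windows, which overlap annotated exons by 40 and 61 bases. These 2 windows, chr5:149636337-149636586 and chr5:149636316-149636565, overlap each other. Their motif, at base 218 of the first and base 197 of the second, is the same site. It lies within the bases that overlap annotated exon. Neither motif was found in the 2 Dnajb1 windows, of which the one at the downstream start lies in annotated exon for 245 of its 250 bases. No member's window held a longer form. Hsp90aa1 had no entry in the promoter table.

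Sequence sharing bears on how the reads of these genes could be assigned. The coding sequences of Hspa1a (1926 bases) and Hspa1b (1929 bases) were 99.4% identical in alignment. Of the 98-base windows, the read length of these libraries, 71.2% in the coding part of Hspa1a also occurred in another gene's transcript, against 6.72% of those before the coding part and 0% of those after it. The same shares for Hspa1b were 68.6%, 6.72% and 0%, and the other genes holding such windows were the pair itself and the neighbour Hspa1l. For Hsp90aa1, 48.1% of windows also occurred in 3 annotated genes, Gm12346, Gm5511 and Gm5844, so reads could be split or dropped there. No window of the longest Hsph1 and Dnajb1 transcripts occurred in another gene.

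The control library held 4232 cells and 17306854 UMIs (unique molecular identifiers, each a captured RNA molecule), with a median of 3021 per cell, and the IL-12 library 12979 cells and 59956933 UMIs, with a median of 3418. Levels are UMIs of a gene per 1000000 UMIs of the same cells (CPM), with exact Poisson 95% intervals that cover counting error only. Each treatment had 1 library from pooled mice, so there is no replicate error and no test of treatment; each difference compares 2 libraries. Ptprc, which encodes CD45, had a UMI in 72.0% of control cells and 71.1% of IL-12 cells. Cells carry the authors' class and 1 of 14 graph-based cluster numbers, and clusters are compared where both libraries have at least 50 cells, which left 10. The summed level of 7 neutrophil markers was 60861 to 307552 CPM in clusters 1, 2, 7 and 14 in both libraries. Cluster 12, classed as CD8 T cells, held these neutrophil markers too, at 52038 CPM in the control and 39940 CPM in the IL-12 library, against 1556 and 1887 CPM in cluster 8, also classed as CD8 T cells. In cluster 9, classed as CD4 T cells, the sum of 2 CD8 markers (665 and 1019 CPM) exceeded that of 3 CD4 T cell markers (129 and 144 CPM). In cluster 13, classed as B cells, 4 B cell markers summed to 1383 and 1428 CPM, beside 956 and 1459 CPM for 6 dendritic cell markers, 66.3 and 753 CPM for 4 mast cell markers, 474 and 892 CPM for 4 epithelial markers and 173 and 17.1 CPM for 4 fibroblast markers. In the IL-12 cells of cluster 11, classed as dendritic cells, the dendritic markers summed to 90.0 CPM, against 20068 CPM for neutrophil, 2661 CPM for macrophage and 1503 CPM for T cell markers. The part of these other markers in the results for clusters 9, 11, 12 and 13 was not tested.

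The 2 libraries shared 87 cell barcodes, which is 2.06% of control cells. In all 87 the cluster number was the same in both libraries, but the authors' class was the same in only 33, so the cluster number of some of these cells may be wrong for their library. They were 15 of the 27 control cells in cluster 3 and 11 of the 21 in cluster 5, which are below the cell minimum, and none in cluster 8. Without them the log2 ratio of IL-12 over control for Hspa1b over all cells was -1.98 in place of -2.03, and the number of clusters past the 1.5-fold threshold was the same for each member in each direction.

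Hspa1a and Hspa1b, the inducible HSP70 genes, were both lower in the IL-12 library, Hspa1b by more. Over all sorted cells Hspa1a stood at 92.4 CPM (95% interval 88.0 to 97.1, 1600 UMIs) in the control library and at 50.7 CPM (48.9 to 52.5, 3039 UMIs) in the IL-12 library, a level 1.82-fold lower (1.72 to 1.94). Hspa1b stood at 227 CPM (220 to 234, 3930 UMIs) and 54.9 CPM (53.0 to 56.8, 3289 UMIs), 4.14-fold lower (3.95 to 4.34). The threshold used for all genes was 1.5-fold on the log2(CPM + 1) scale, and genes counted as measured when both libraries together gave 50 UMIs or more and when 5% of cells or more in either library carried one. All 5 members were measured over all cells. Of the 5366 genes measured over all cells, 23.2% were past 1.5-fold lower and 13.7% past 1.5-fold higher in the IL-12 library, with a median log2 ratio of -0.11. Hspa1a, Hspa1b and Hsph1 were past the threshold lower and no member past it higher; 0.28% of the measured genes had a lower ratio than Hspa1b, 11.2% a lower one than Hspa1a and 20.97% a lower one than Hsph1. Without cluster 5, which is almost only in the IL-12 library, the log2 ratio of Hspa1a was -0.57 in place of -0.85 and inside the threshold.

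Cluster 2, classed as neutrophils, was the highest for both genes in both libraries. For Hspa1a it stood at 627 CPM (572 to 686) in the control and 143 CPM (132 to 155) in the IL-12 library. Next in the control came cluster 7 (neutrophils, 209 CPM) and cluster 9 (164 CPM), whose intervals overlapped, then clusters 12, 4, 6 and 10 between 97.2 and 58.6 CPM with overlapping neighbours, and at the low end clusters 8 and 14 (36.3 and 32.5 CPM), cluster 1 (12.1 CPM) and cluster 13, classed as B cells, with 1 UMI. In the IL-12 library clusters 7, 10, 9, 12, 11, 8, 6 and 13 lay between 78.6 and 45.3 CPM, each overlapping its neighbour, and cluster 14, a neutrophil cluster, was lowest at 4.97 CPM.

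For Hspa1b cluster 2 stood at 1521 CPM (1434 to 1611) in the control and 149 CPM (138 to 160) in the IL-12 library, 10.2-fold lower (9.29 to 11.3). In the control, cluster 9 (430 CPM) and cluster 7 (352 CPM) followed, with overlapping intervals, and clusters 14 and 1 were lowest at 60.4 and 58.0 CPM. In the IL-12 library clusters 13, 10, 9, 11, 12, 7 and 8 lay between 115 and 55.7 CPM, each overlapping its neighbour, and cluster 14 was lowest with 2 UMIs. The median over the clusters used was 152 CPM in the control and 63.4 CPM in the IL-12 library.

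**Figure D1:**
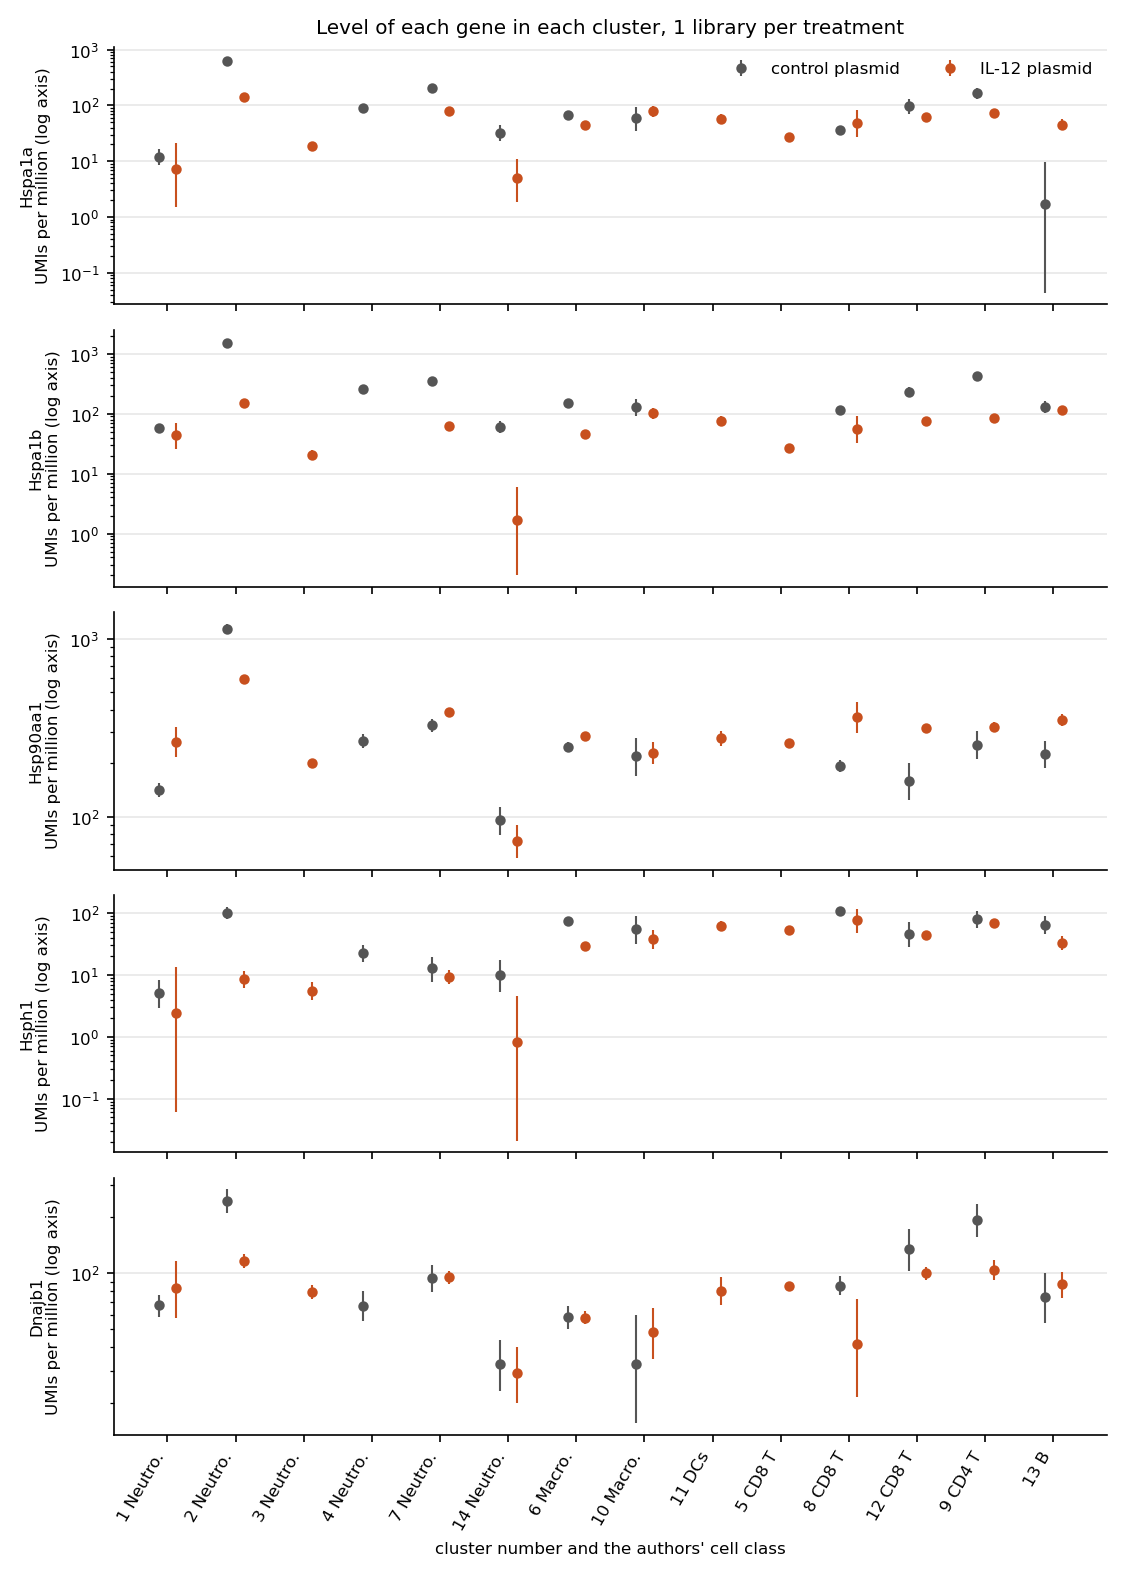
Level of each of the 5 genes (UMIs per 1000000 UMIs, log axis) in every cluster with at least 50 cells, control library in grey and IL-12 library in orange, with exact Poisson 95% intervals. Cluster 2 is the highest for Hspa1a, Hspa1b, Hsp90aa1 and Dnajb1 in both libraries, and Hsph1 is low in the neutrophil clusters 1, 7 and 14.

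Cluster by cluster, Hspa1b was past 1.5-fold lower in the IL-12 library in 7 of 10 clusters (2, 6, 7, 8, 9, 12 and 14) and past 1.5-fold higher in 0, and all 10 log2 ratios were below 0, with a median of -1.64. In clusters 1, 2, 6, 7, 8, 9, 10, 12, 13 and 14, in that order, 21.2%, 38.8%, 21.3%, 34.1%, 23.9%, 16.4%, 13.6%, 28.3%, 28.5% and 30.8% of measured genes were past 1.5-fold lower. The shares past 1.5-fold higher were, in the same order, 15.1%, 8.53%, 10.4%, 8.96%, 12.8%, 15.3%, 23.1%, 16.9%, 18.5% and 13.9%. All 5 members passed the filter on low counts in clusters 2, 6, 7, 8, 12 and 13, 4 of them in cluster 10, 3 in clusters 9 and 14 and 2 in cluster 1; the members' own counts of clusters include those that did not pass. Hspa1b was 5.56-fold lower (4.88 to 6.34) in cluster 7, 5.01-fold lower (4.14 to 6.06) in cluster 9, 3.30-fold lower (2.91 to 3.74) in the macrophage cluster 6 and 3.02-fold lower (2.42 to 3.75) in cluster 12. These ratios rest on few control cells: 2 of 179 in cluster 9 held 69.1% of the UMIs, and 2 of 54 in cluster 12 held 95.2%. In clusters 7 and 6 the top 1% of control cells held 48.5% and 50.7%. A Hspa1b UMI was seen in 4.47% of control and 4.51% of IL-12 cells of cluster 9, so the gene did not pass the filter there. In cluster 12 these shares were 12.96% and 11.76%. In cluster 8 Hspa1b was 2.04-fold lower (1.24 to 3.61), with 16 UMIs in the IL-12 library, and without the 1% of cells with the most Hspa1b UMIs the log2 ratio was -0.26 in place of -1.02. In cluster 14 the ratio rests on 2 IL-12 UMIs, both in 1 cell, and was 0.0274 (0.00326 to 0.102). Hspa1b passed the filter there only through the control library, with a UMI in 6.25% of control and 0.855% of IL-12 cells. In clusters 1, 10 and 13 the intervals of the ratio included 1. Without the 1% of cells with the most UMIs, the log2 ratio in cluster 1 was 1.42 and that in cluster 13 was 0.93, and in cells with at least 2000 UMIs that in cluster 10 was 1.56.

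Hspa1a was past 1.5-fold lower in 6 clusters (1, 2, 7, 9, 12 and 14) and past 1.5-fold higher in 1. It was 4.38-fold lower (3.88 to 4.94) in cluster 2, 2.66-fold lower (2.31 to 3.07) in cluster 7 and 2.26-fold lower (1.72 to 2.93) in cluster 9. In cluster 9 only 4 of 179 control cells had a Hspa1a UMI, and 2 of them held 67.5% of the UMIs. With a UMI in 2.23% of control and 3.81% of IL-12 cells, Hspa1a did not pass the filter there. In cluster 12 only 4 of 54 control cells had one, and 1 cell held 52.3% of the UMIs. In cluster 1 the call rests on 3 IL-12 UMIs, and the ratio of 0.605 (0.119 to 1.91) has an interval that includes 1. In clusters 1 and 12 the log2 ratio was -0.66 in each, just past the threshold of 1.5-fold, and with the median of all measured genes subtracted it was -0.54 and -0.50. In cluster 6 it was 1.50-fold lower (1.27 to 1.76), just inside. The cluster that was higher was 13, where the control had 1 Hspa1a UMI and the IL-12 library 82, a ratio of 26.0 (4.53 to 1038). Hspa1a passed the filter there only through the IL-12 library, with a UMI in 1.05% of control and 5.99% of IL-12 cells. Of these 82 UMIs, 70.7% were in 3 of the 267 IL-12 cells. In that cluster 57 of the 74 control Hspa1b UMIs were in 1 cell. In cluster 14 Hspa1a was 6.55-fold lower (2.77 to 18.8), but 22 of the 42 control UMIs were in 1 cell, and without the 1% of cells with the most the log2 ratio was -1.01 in place of -2.49.

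**Figure D2:**
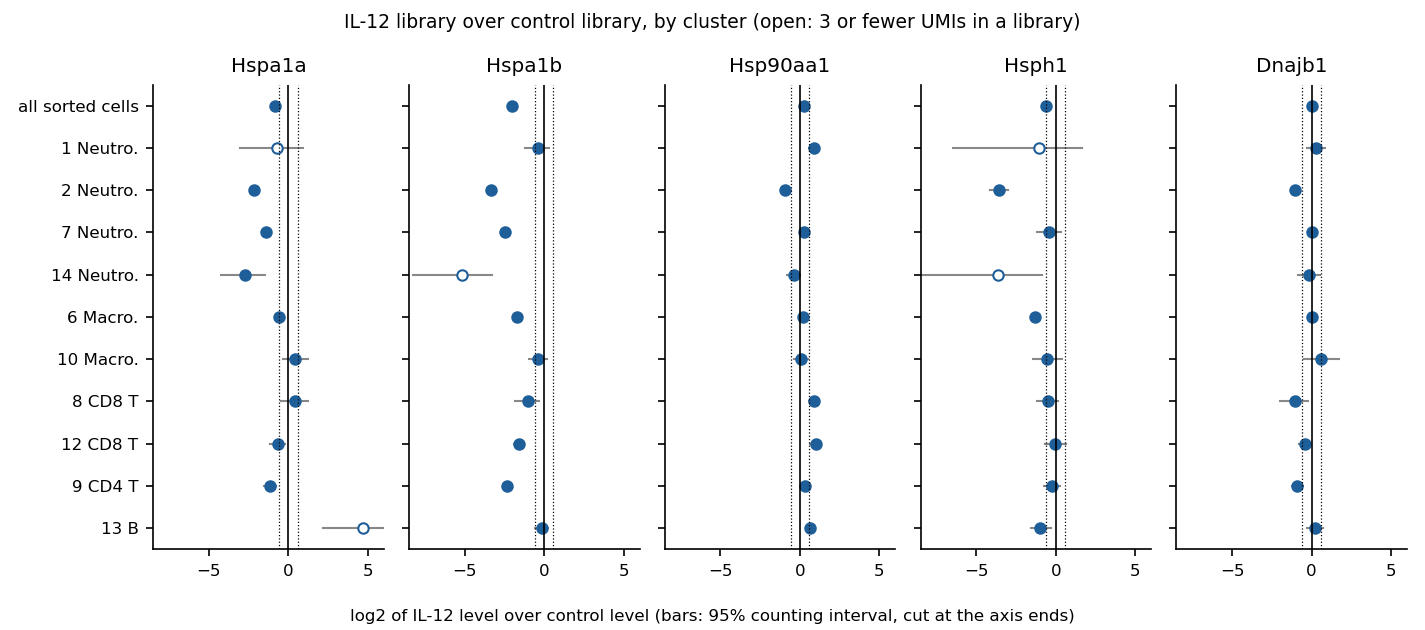
Log2 of the IL-12 level over the control level for each gene (x axis) over all sorted cells and in the 10 clusters compared, with exact 95% counting intervals; dotted lines mark 1.5-fold and open points rest on 3 or fewer UMIs in a library. Points of Hspa1b lie left of 0 in every cluster, while those of Hsp90aa1 lie right of the dotted line in clusters 1, 8, 12 and 13 and left of it in cluster 2.

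The proportion of the 2 HSP70 genes differed between the libraries. This comparison and those of cells rich in HSP70 UMIs were chosen after the values were seen. Over all control cells there were 2.46 Hspa1b UMIs (2.317 to 2.605) per Hspa1a UMI, and over all IL-12 cells there were 1.08 (1.03 to 1.14). In the 7 clusters with at least 10 UMIs of each gene in both libraries the control ratio ran from 1.68 to 3.13 and the IL-12 ratio from 0.806 to 1.29. The control ratio was above the IL-12 ratio in all 7 clusters, and the intervals were apart in 6, cluster 10 being the one that overlapped. In cluster 2 the ratios were 2.42 (2.18 to 2.70) and 1.04 (0.929 to 1.16), in cluster 6 they were 2.24 (1.91 to 2.64) and 1.02 (0.900 to 1.16), and in cluster 8 they were 3.13 (2.55 to 3.88) and 1.14 (0.523 to 2.53).

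The difference in proportion did not rest on the cells richest in HSP70. Without the 1% of cells with the most UMIs of the pair the ratios were 2.61 (2.38 to 2.86) in the control and 1.17 (1.08 to 1.27) in the IL-12 library, and in cells with 1 to 9 UMIs of the pair 2.44 (2.08 to 2.89) and 1.18 (1.08 to 1.28). Without cluster 2 they were 2.47 and 1.09. Among cells with at least 10 UMIs of the pair, the median share of Hspa1b within a cell was 73.0% in the 128 control cells (quartiles 61.2% and 85.5%) and 50% in the 162 IL-12 cells (38.5% and 61.4%). Cluster 13 of the IL-12 library, at 2.55 (1.97 to 3.33), was above the other IL-12 clusters with at least 10 UMIs of each gene. The treatment, the pool of mice and the library cannot be told apart here, and how reads common to both genes were assigned was not tested. Summed, the pair stood at 320 CPM (311 to 328) in the control and 106 CPM (103 to 108) in the IL-12 library.

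**Figure D3:**
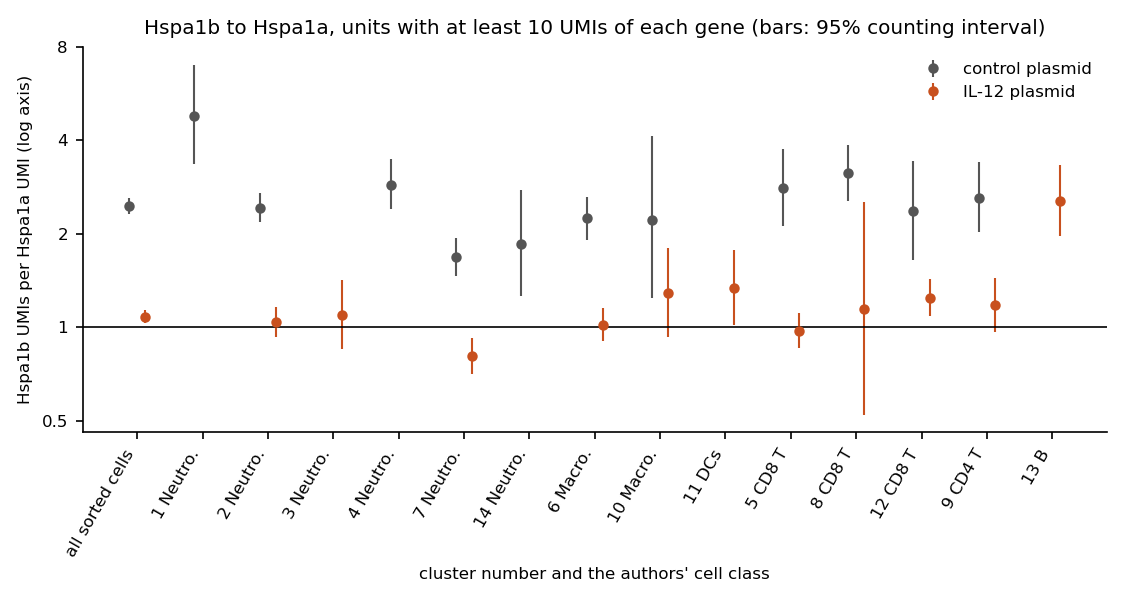
Hspa1b UMIs per Hspa1a UMI (y axis, log) over all sorted cells and in each cluster with at least 10 UMIs of each gene in that library, with exact 95% counting intervals. Control values (grey) lie between 1.68 and 4.79, and the IL-12 values (orange) between 0.806 and 1.34 except in cluster 13 at 2.55. Cluster 5 of the control holds 21 cells.

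Hsp90aa1, the inducible HSP90 gene, was slightly higher in the IL-12 library over all cells and had the opposite direction in cluster 2. Over all cells it stood at 255 CPM (248 to 263, 4416 UMIs) in the control and 303 CPM (299 to 308, 18189 UMIs) in the IL-12 library, 1.19-fold higher (1.15 to 1.23) and inside the threshold. Cluster 2 was highest in both libraries, at 1133 CPM (1059 to 1212) in the control and 595 CPM (572 to 618) in the IL-12 library, 1.91-fold lower (1.76 to 2.06). With the median of all measured genes subtracted, that log2 ratio was -0.54 in place of -0.93, which is inside the threshold. Cluster 7 was second in both libraries (326 and 386 CPM) and cluster 14 lowest in both (95.3 and 72.9 CPM). In the control the intervals of clusters 4, 9, 6, 13, 10, 8, 12 and 1 each overlapped the next, as did those of clusters 7, 8, 13, 9 and 12 in the IL-12 library.

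Hsp90aa1 was past 1.5-fold higher in 4 clusters. It went from 141 to 264 CPM in the neutrophil cluster 1 (1.87-fold higher, 1.50 to 2.31), from 192 to 362 CPM in cluster 8 (1.88-fold, 1.51 to 2.32), from 159 to 314 CPM in cluster 12 (1.97-fold, 1.56 to 2.53) and from 225 to 350 CPM in cluster 13 (1.56-fold, 1.29 to 1.90). In clusters 12 and 13 the sums of other cell types' markers given above also differed between the libraries. In clusters 6, 7, 9, 10 and 14 Hsp90aa1 stayed inside the threshold, with ratios from 0.765 to 1.26.

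Hsph1, the HSP110 gene, had a different order of clusters from the other members. It was highest in cluster 8, classed as CD8 T cells, at 107 CPM (95.8 to 118) in the control and 76.6 CPM (48.0 to 116, 22 UMIs) in the IL-12 library. In the control cluster 2 followed at 101 CPM (80.1 to 127) with an overlapping interval, and in the IL-12 library cluster 9 at 69.0 CPM. Cluster 1 was lowest in the control at 5.10 CPM, and clusters 1 and 14 were lowest in the IL-12 library with 1 UMI each. Within the IL-12 library all neutrophil clusters with at least 50 cells lay at or below 9.37 CPM and all other clusters at or above 29.4 CPM.

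Over all cells Hsph1 stood at 53.0 CPM (49.6 to 56.5, 917 UMIs) in the control and 33.9 CPM (32.5 to 35.4, 2034 UMIs) in the IL-12 library, 1.56-fold lower (1.44 to 1.69). Without the 1% of cells with the most Hsph1 UMIs the log2 ratio was -0.43 in place of -0.63, inside the threshold, as it also was with equal weight per cell (-0.45), with a pseudocount of 10 CPM (-0.52), with the median gene subtracted (-0.52) and without cluster 2 (-0.49). With IL-12 cells weighted to the cluster shares of the control library it was -1.01. By cluster it was past 1.5-fold lower in 5 of 10 (1, 2, 6, 13 and 14) and higher in 0. In cluster 2 it went from 101 to 8.58 CPM, 11.8-fold lower (7.92 to 17.9); 5 cells held 54.5% of the 77 control UMIs. In cluster 6 it went from 73.4 to 29.4 CPM, 2.50-fold lower (2.11 to 2.96), and in cluster 13 from 64.5 to 33.2 CPM, 1.95-fold lower (1.26 to 2.98). In clusters 1 and 14 the IL-12 library had 1 UMI, with ratios of 0.479 (0.0114 to 3.08) and 0.0822 (0.00194 to 0.548).

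Dnajb1, the HSP40 gene, varied least among clusters. The highest cluster exceeded the lowest 7.53-fold in the control and 4.01-fold in the IL-12 library, against 11.9-fold and 8.16-fold for Hsp90aa1. Over all cells it stood at 82.7 CPM (78.5 to 87.1, 1432 UMIs) in the control and 83.4 CPM (81.1 to 85.7, 4998 UMIs) in the IL-12 library, a ratio of 1.01 (0.9498 to 1.069). Cluster 2 was highest in both libraries (245 and 116 CPM), followed by clusters 9 (194 and 104 CPM) and 12 (135 and 100 CPM), and cluster 14 was lowest in both (32.5 and 29.0 CPM). Among IL-12 cells every cluster from the first to the ninth overlapped its neighbour.

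Dnajb1 was past 1.5-fold lower in 3 clusters and higher in 0. It was 2.11-fold lower (1.77 to 2.50) in cluster 2, 2.06-fold lower (1.16 to 4.02) in cluster 8, where the IL-12 library had 12 UMIs, and 1.86-fold lower (1.46 to 2.35) in cluster 9. Without the 1% of cells with the most Dnajb1 UMIs the log2 ratio in cluster 9 was -0.53 in place of -0.89. In cluster 2, where 38.8% of measured genes were past 1.5-fold lower, Hspa1a, Hspa1b, Hsp90aa1 and Dnajb1 were so too. Hsph1 was as well, but it passed the filter on low counts there only through the control library, since 6.79% of control cells but 1.72% of those from the IL-12 library had a UMI. The summed level of 21 immediate early genes, which also answer to handling and stress, was 25533 and 33864 CPM in that cluster. That is 1.33-fold higher in the IL-12 library and inside the threshold. Of these genes 4 were past 1.5-fold higher, 5 past it lower and 12 within, against 8.53% higher and 38.8% lower of measured genes. The mitochondrial share of the cluster had medians of 1.18% and 0.929%. The part of handling or stress in these levels was not tested.

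The HSP70 UMIs were held by few cells. In the control library 28 cells, 0.662% of the library, held 50% of all Hspa1a UMIs, and 32 cells held 50% of all Hspa1b UMIs. In the IL-12 library 78 and 88 cells did so, 0.601% and 0.678% of the library. The top 1% of cells held 58.1% to 63.5% of the UMIs of either gene in either library. The highest cell had 85 Hspa1a and the highest 154 Hspa1b UMIs in the control, against 53 and 51 in the IL-12 library. Hsp90aa1 was spread more widely, with 50% of its UMIs in 252 control cells (5.95%) and 1322 IL-12 cells (10.2%). For Hsph1 these were 67 cells (1.58%) and 311 cells (2.40%), and for Dnajb1 209 cells (4.94%) and 901 cells (6.94%). Variation of this kind between cells is not part of the Poisson intervals, which are too narrow to that extent.

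Cells with at least 10 UMIs of Hspa1a and Hspa1b together made up 3.02% (exact binomial 95% interval 2.53 to 3.59) of control cells and 1.25% (1.06 to 1.45) of IL-12 cells. They held 87.1% of the pair's UMIs in the control and 64.2% in the IL-12 library. In cluster 2 they were 43 of 427 control cells (10.1%, 7.38 to 13.3) and 36 of 1914 IL-12 cells (1.88%, 1.32 to 2.59). In cluster 7 they were 7.48% (4.56 to 11.4) and 2.099% (1.33 to 3.13), and in cluster 6 they were 4.35% (2.51 to 6.96) and 1.96% (1.25 to 2.93). In clusters 12 and 13 the IL-12 share was 3.26% and 3.37% and the control had 2 such cells each. No such cell was seen among 837 IL-12 cells of cluster 11, classed as dendritic cells, which allows a share of up to 0.358% when the limit is set at 3 cells of the total, and 0.440% by the exact binomial interval. Median depth was 3618 UMIs in these control cells and 5266 in these IL-12 cells, against 3008 and 3378 in cells with no UMI of the pair.

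The other members were higher in the cells rich in HSP70. Hsp90aa1 stood at 1591 CPM (1490 to 1698) in control cells with at least 10 UMIs of the pair and at 181 CPM (174 to 188) in those with 0, and at 1347 and 258 CPM in the IL-12 library. Hsph1 stood at 400 and 35.3 CPM in the control and at 230 and 27.5 CPM in the IL-12 library. Dnajb1 stood at 560 and 61.0 CPM in the control and at 370 and 73.3 CPM in the IL-12 library. Within clusters 2, 6 and 7, the ones with at least 10 such cells in each library, the levels were also higher in these cells, with intervals apart except for Dnajb1 in cluster 6 of the IL-12 library, at 88.2 CPM (54.6 to 134.8) and 51.6 CPM (47.1 to 56.4). In cluster 2 Hsp90aa1 stood at 3823 and 525 CPM in the control and at 2944 and 470 CPM in the IL-12 library, and Dnajb1 at 939 and 116 CPM and at 260 and 104 CPM. In cluster 6 Hsph1 stood at 543 and 52.6 CPM in the control and at 134 and 24.3 CPM in the IL-12 library.

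In cluster 2 the IL-12 cells with no HSP70 UMI still had less Hsph1 than the control cells with none, 5.75 CPM (3.61 to 8.71) against 37.4 CPM (22.8 to 57.7), while Hsp90aa1 (470 and 525 CPM) and Dnajb1 (104 and 116 CPM) had overlapping intervals. Over all cells 3 further chaperones, picked after their values were seen, were also higher in the cells rich in HSP70: Hspa8, the constitutive HSP70, at 400 and 90.5 CPM in the control and 436 and 161 CPM in the IL-12 library; Dnaja1, a further HSP40, at 1010 and 243 CPM and at 1017 and 306 CPM; and Bag3, an HSP70 co-chaperone, at 69.2 and 9.64 CPM and at 66.6 and 9.52 CPM. Hspa9, the mitochondrial HSP70, stood at 57.1 and 60.1 CPM in the control, with overlapping intervals, and at 64.6 CPM (49.99 to 82.24) and 45.5 CPM (43.7 to 47.4) in the IL-12 library. Other mitochondrial chaperones were higher in the cells rich in HSP70. Hspd1 stood at 135 and 68.1 CPM in the control and at 210 and 84.6 CPM in the IL-12 library. Hspe1 stood at 263 and 116 CPM and at 222 and 91.7 CPM. Hspa5, a chaperone of the endoplasmic reticulum, stood at 901 and 668 CPM and at 900 and 706 CPM. The immediate early sum was 18269 CPM in the control cells rich in HSP70 and 9367 CPM in those with none, and 16527 and 11351 CPM in the IL-12 library.

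**Figure D4:**
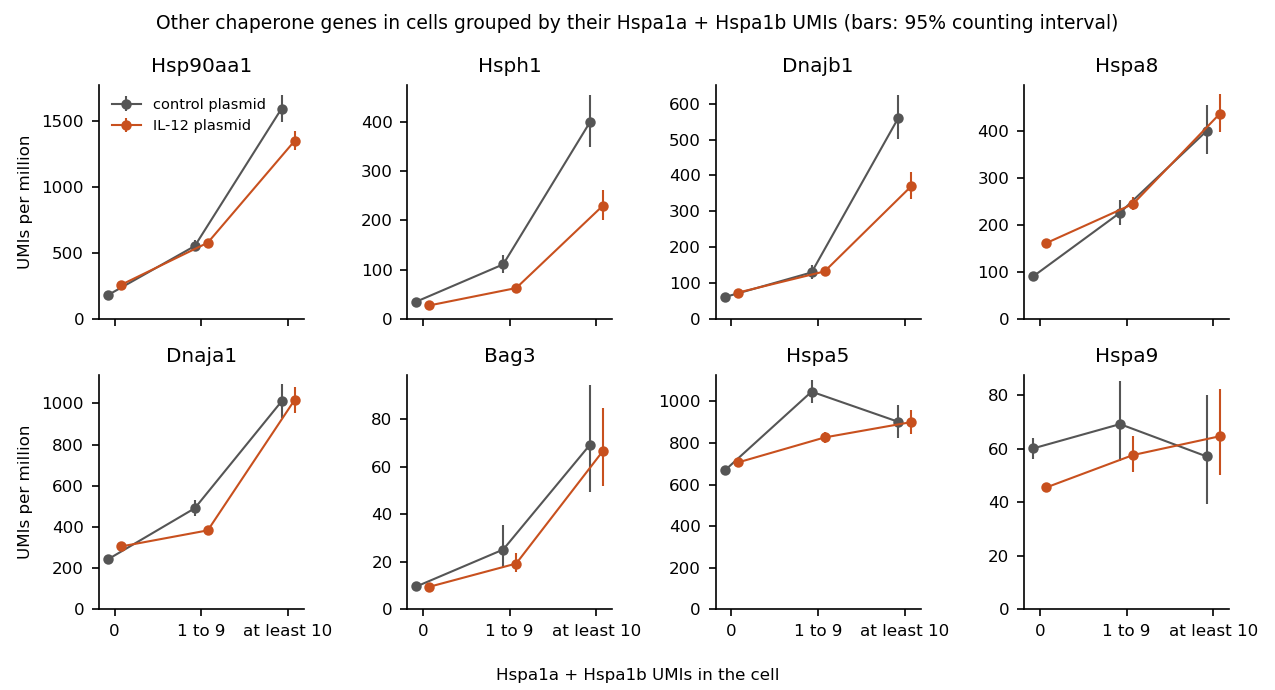
Levels (UMIs per 1000000 UMIs, linear axes from 0) of 8 other chaperone genes in cells with 0, 1 to 9 and at least 10 UMIs of Hspa1a and Hspa1b together, control library in grey and IL-12 library in orange, with exact Poisson 95% intervals. Hsp90aa1, Hsph1, Dnajb1, Hspa8, Dnaja1 and Bag3 are highest in the last group, and Hspa9 stays between 45.5 and 69.2 CPM. Hspa5 is highest in the middle group of the control and in the last group of the IL-12 library.

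To compare cells of unequal depth, each was thinned to 1000 UMIs, which left out 198 control and 469 IL-12 cells. A UMI was then seen for Hspa1a in 3.69% of control and 2.90% of IL-12 cells (5.55% and 5.61% unthinned), for Hspa1b in 5.90% and 3.26% (8.88% and 6.63%), for Hsp90aa1 in 18.3% and 22.9% (40.4% and 54.9%), for Hsph1 in 3.35% and 2.62% (9.97% and 10.2%), and for Dnajb1 in 7.59% and 7.85% (20.8% and 26.2%). No cell type is known to lack these genes, so the share given by free RNA could not be set. Among clusters with at least 50 cells, thinning left no UMI of Hsph1 in the 117 IL-12 cells of cluster 14 and none of Hspa1a in the 95 control cells of cluster 13, where 1 cell each had a UMI at full depth.

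The members were found together. After thinning, Hspa1b was seen in 79.2% (71.8 to 85.4) of the 149 control cells with Hspa1a and in 3.09% (2.57 to 3.68) of those without it, and in 49.9% (44.6 to 55.1) and 1.87% (1.64 to 2.13) in the IL-12 library. Hsph1 was seen in 20.1% and 2.70% of control cells with and without Hspa1a, and in 7.71% and 2.47% of IL-12 cells. Dnajb1 was seen in 25.5% and 6.90% of these control cells and in 16.8% and 7.58% of these IL-12 cells. No member was seen in 72.0% of control and 67.9% of IL-12 cells, and all 5 in 11 of 4034 control cells and 6 of 12510 IL-12 cells.

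Most other chaperone genes were within 1.5-fold. The lists were chosen with earlier results of these data known, and they overlap. Hspa8 stood in the inducible and the constitutive list. Dnaja1, Dnajb4, Bag3, Chordc1, Ahsa1, Stip1, Cacybp and Fkbp4 stood in the inducible list and among the co-chaperones, and Dnaja1 is the median of both. Hspd1 and Hspe1 also stood among the mitochondrial chaperones, and Hspb1 among the small heat shock proteins. Of 13 further genes in the inducible heat shock list, all with at least 20 UMIs over both libraries, 2 were past 1.5-fold higher in the IL-12 library, 1 was past it lower and 10 were within, with a median log2 ratio of 0.17 against -0.11 over all measured genes, of which 13.7% were higher and 23.2% lower. Counts of higher genes in this list, the co-chaperones and the chaperones of the endoplasmic reticulum were near the share of higher genes, so those counts set none of these lists apart. Their counts of lower genes, 1 of 13, 3 of 25 and 0 of 15, were below the share of 23.2%. Hspa8 went from 111 to 173 CPM (1.56-fold higher, 1.49 to 1.64). Ahsa1, an activator of HSP90, went from 37.6 to 65.7 CPM (1.75-fold higher, 1.61 to 1.90). Hspa4l, an HSP110 relative of Hsph1, went from 54.5 to 23.3 CPM (2.34-fold lower, 2.15 to 2.54). In cluster 2 Hspa8 was lower (153 and 89.7 CPM), while it was past 1.5-fold higher in clusters 1, 8, 9, 12 and 13.

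Among 25 co-chaperones 4 were past 1.5-fold higher and 3 past it lower, with a median log2 ratio of 0.17. The largest were Dnaja4 (3.12 and 7.72 CPM) and Stub1, a ubiquitin ligase for chaperone clients (23.6 and 47.3 CPM), both higher, and Fkbp5, an HSP90 partner (16.7 and 7.62 CPM), and Dnajb2 (16.5 and 8.71 CPM), both lower. Of 15 chaperones of the endoplasmic reticulum 2 were higher, Pdia3 (197 and 316 CPM) and Sdf2l1 (29.5 and 55.8 CPM), and 0 lower, with a median log2 ratio of 0.38. Of 8 mitochondrial chaperones 0 were past the threshold either way, with a median of 0.05. Of 8 subunits of the cytosolic chaperonin TRiC 1 was higher, Cct4 (48.4 and 75.4 CPM), and 0 lower, with a median of 0.46. Among 6 constitutive cytosolic chaperones 1, Hspa8, was higher. In the list of small heat shock proteins 5 genes were counted. Hspb1, Hspb6, Hspb8 and Cryab were within the threshold, and Hspb11 (5.72 and 10.96 CPM) was higher. Hspb11 was counted by its place in the list, and whether it acts as a chaperone was not tested.

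Of the heat shock factors, Hsf1 stood at 15.9 CPM in the control and 14.3 CPM in the IL-12 library, and Hsf2 at 10.2 and 5.67 CPM, 1.79-fold lower (1.49 to 2.16). Hsf4 was near 0 at 0.578 and 0.701 CPM, and Hsbp1, which binds HSF1 and restrains it, stood at 84.7 and 110 CPM. Of these 4 genes 1 was past the threshold lower and 0 higher. In a list of metallothionein and oxidative stress genes, 4 of 9 were lower and 2 higher: the metal-binding Mt2 went from 35.4 to 8.11 CPM (4.37-fold lower, 3.87 to 4.93) and Mt1 from 844 to 415 CPM, while Hmox1, which breaks down heme, went from 222 to 482 CPM (2.17-fold higher, 2.096 to 2.243). Of 21 immediate early genes 4 were past the threshold higher and 6 lower, with a median log2 ratio of 0.15. Over all measured genes 13.7% were past it higher and 23.2% lower. The counts of immediate early genes and the count of lower heat shock factors were near these shares, so they set neither list apart.

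By their profile over clusters, the members fell nearest to each other, to the chaperone gene Hspa8 or to genes of other kinds. Likeness was the lower of the Pearson correlations of log2(CPM + 10) over the 11 control and the 13 IL-12 clusters, among 5450 genes; clusters share libraries and differ in depth, and these values are descriptions. Hspa1a was most like Hspa1b (0.88 in the control and 0.84 in the IL-12 library), then Osbpl8 and Gnpda1. Hspa1b was most like Hsp90aa1 (0.90 and 0.86), then Hspa1a and Fau. Hsp90aa1 was most like Alkbh5 (0.86 and 0.91), then Hspa1b and Fau. Hsph1 was most like Hspa8 (0.93 and 0.95), then Clcn3 and Ccny, and Dnajb1 was most like Rabac1 (0.83 and 0.82), then Supt4a and Sin3b. Hsph1 and Hspa1a had correlations of 0.27 and 0.48.

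For T cells with a receptor, the authors' table gives a cell cycle phase and whether the clone has more or fewer than 10 cells. In the IL-12 library the pair Hspa1a and Hspa1b stood at 65.0 CPM in 596 cells called G1, 65.9 CPM in 1586 called S and 121 CPM in 1128 called G2M, so that G2M exceeded G1 1.86-fold (1.61 to 2.15). That difference rests on few cells: 6 of the 1128 G2M cells held 50% of the UMIs, and without the 1% of cells with the most, the levels were 26.8 CPM in G1 and 31.3 CPM in G2M. By cluster the direction differed: G2M over G1 was 3.72 (2.86 to 4.92) in cluster 5 and 2.06 (1.60 to 2.67) in cluster 12, but 0.731 (0.556 to 0.962) in cluster 9. In the control library the pair stood at 253, 139 and 224 CPM in 157, 159 and 167 cells, with 50% of the UMIs in 2, 1 and 2 cells, and in cluster 8 G2M over G1 was 2.27 (1.76 to 2.96) against 0.886 over all. Hsp90aa1 in the IL-12 library was 241, 278 and 286 CPM, 1.19-fold higher in G2M than in G1 (1.10 to 1.29), and 218 and 254 CPM without the top 1% of cells.

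Between clone sizes, Hspa1b in the control library stood at 67.7 CPM in 290 cells of clones below 10 and at 284 CPM in 193 cells of clones above 10. Of these UMIs, 50% were in 2 and 3 cells, and without the 1% of cells with the most, the levels were 19.3 and 164 CPM. Over all IL-12 receptor cells the direction was the opposite, 55.8 CPM in 913 cells and 40.3 CPM in 2397 cells, and 14.8 and 11.9 CPM without the top 1%. By cluster, larger over smaller clones was 0.593 (0.481 to 0.736) in cluster 5 and 0.766 (0.607 to 0.972) in cluster 12, but 3.04 (2.218 to 4.201) in cluster 9, where 2 and 3 cells held 50% of the UMIs. Hsph1 in the IL-12 library stood at 36.7 CPM in the smaller and 53.5 CPM in the larger clones, 1.46-fold higher (1.25 to 1.71), with 50% of its UMIs in 43 and 134 cells, and at 27.9 and 43.5 CPM without the top 1%. In the control it was 111 and 102 CPM, a ratio of 0.919 (0.726 to 1.16). Dnajb1 in the IL-12 library stood at 89.4 and 92.9 CPM, a ratio of 1.04 (0.937 to 1.155). In the control Dnajb1 stood at 83.6 and 127 CPM, a ratio of 1.52 (1.20 to 1.91), and at 73.4 and 97.1 CPM without the top 1%. Within control cluster 8 the ratio was 1.31 (0.990 to 1.73).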

How the data were processed

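The 2 expression tables (control and IL-12) and a table of T cell receptor cells were used. Per the submitters' processing notes, the authors used Cell Ranger 2.1.0, STAR 2.6.1 and Partek with mm10; the step that each tool served was not stated. The deposited expression values are log2(CPM + 1) per cell, as tested on the values. UMI counts were recovered from these deposited values by taking the smallest value above 0 in each cell as 1 UMI; 6 values of 4251108 in the control library and 13 of 13883686 in the IL-12 library were not whole within 0.1. The listed genes held 72.9% and 70.4% of the cells' UMIs, and the denominator was all UMIs. The receptor table's phase and clone classes are the authors' own; cells were joined by barcode and library.

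UMIs were summed over cells of a library, class or cluster and divided by their total. Intervals are exact Poisson (levels), exact conditional (ratios) and Clopper-Pearson (shares), at 95%, for counting error only. Log2 ratios use a pseudocount of 1 CPM. Doublets were not called. With 1 library per treatment no model was fitted and no p-value computed. The ratio and interval code was tested on simulated data. The members and gene lists were chosen with earlier results of these data known. Named genes were the members, up to 4 of each list by size of log2 ratio with at least 50 UMIs, and the 3 genes most like each member; genes shown beside the HSP70 pair within cells were added after their values were seen. Promoter windows are from RefSeq (4 of 5 members matched) and positions from GENCODE M21. Alternatives were another denominator, equal weight per cell, pseudocount, depth minimum, leaving out the cells with the most UMIs, clusters or shared barcodes, weighting to control cluster shares and centring on the median gene. Tools were Python 3.11.15, numpy 2.4.6, scipy 1.17.1, pandas 2.3.3, Biopython 1.88 and matplotlib 3.10.9.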

Additional observations from a re-analysis of the deposited data

Results flagged for a closer look

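Hspa1a moved in opposite directions in different clusters: its log2 ratio of IL-12 over control was 4.08 in cluster 13, where the control library has 1 UMI, and -2.49 in cluster 14, where the IL-12 library has 6 UMIs and 22 of the 42 control UMIs are in 1 cell. Hsp90aa1 also did so, with 0.98 in cluster 12 and -0.93 in cluster 2. With 1 library per treatment, the difference between the clusters was not tested.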

How the results depend on the processing

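Log2 ratios over all sorted cells (main: Hspa1a -0.85, Hspa1b -2.03, Hsp90aa1 0.25, Hsph1 -0.63, Dnajb1 0.01) were compared with the counting interval of the main value. They moved outside it in the following settings, and for Hspa1a, Hspa1b, Hsp90aa1 and Hsph1 no listed setting changed the sign; the cause was not tested. With equal weight per cell Hspa1a was -0.97, Hspa1b -2.16, Hsp90aa1 0.096 and Hsph1 -0.45. With a pseudocount of 10 CPM Hspa1a was -0.76, Hspa1b -1.87 and Hsph1 -0.52. In cells with at least 2000 UMIs Hspa1a was -0.77, Hspa1b -1.94 and Hsp90aa1 0.32. With IL-12 cells weighted to control cluster shares Hspa1a was -0.999, Hspa1b -2.13, Hsp90aa1 0.19, Hsph1 -1.01 and Dnajb1 -0.24. With the median of all measured genes subtracted they were -0.74, -1.92, 0.36, -0.52 and 0.12. Without the 1% of cells with the most UMIs of the gene Hsp90aa1 was 0.38, Hsph1 -0.43 and Dnajb1 0.15. With only the table's genes as denominator Hsp90aa1 was 0.30. With Hspa1a and Hspa1b summed as one, the ratio was -1.59. Added after seeing the data: without cluster 2 they were -0.64, -1.80, 0.38, -0.49 and 0.099; without cluster 5 Hspa1a was -0.57, Hspa1b -1.71, Hsp90aa1 0.35 and Hsph1 -0.96; without shared barcodes Hspa1b was -1.98.

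Of 10 clusters, those past 1.5-fold higher numbered 2 for Hspa1a without the 1% of cells with the most UMIs and 2 in cells with at least 2000 UMIs, against 1. For Hspa1b they were 2 without those cells, 1 with equal weight and 1 in cells with at least 2000 UMIs, against 0, and for Dnajb1 1 in cells with at least 2000 UMIs, against 0. For Hsp90aa1 the clusters past 1.5-fold lower numbered 0 with the median subtracted, against 1. Over all cells 1247 measured genes were past 1.5-fold lower and 736 higher; with only 1 UMI required in each library these were 2098 and 1247, and past 2-fold they were 381 and 224. Of 300 ratios by cluster under an alternative, 40 moved outside the main counting interval. No ratio past 1.5-fold in the main analysis changed sign, but ratios within it did: Hspa1b was 0.42 with equal weight and 1.42 without the top 1% of cells in cluster 1 (main -0.39), 0.61 and 0.93 in cluster 13 (-0.16) and, in cells with at least 2000 UMIs, 1.56 in cluster 10 (-0.36). Hspa1a in cluster 10 was -0.60 with equal weight and -0.47 without the top 1% (0.41). Some ratios of Hsp90aa1, Hsph1 and Dnajb1 near 0 also changed sign, inside the main interval.

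Shares of cells with a UMI were larger at greater depth for each member. Unthinned, control and IL-12 shares were 5.55% and 5.61% for Hspa1a, 8.88% and 6.63% for Hspa1b, 40.4% and 54.9% for Hsp90aa1, 9.97% and 10.2% for Hsph1, and 20.8% and 26.2% for Dnajb1. Thinned to 2000 UMIs they were 26.7% and 37.4% for Hsp90aa1, 6.13% and 5.31% for Hsph1, 12.7% and 14.3% for Dnajb1, and in the IL-12 library 3.804% for Hspa1a and 4.25% for Hspa1b. No paired analysis was possible because each treatment has 1 library, and no replicate could be left out. Among the clusters compared, total depth was lowest in cluster 8 of the IL-12 library (287250 UMIs) and cluster 10 of the control (307058 UMIs), which limits their ratios, and pooling hides the spread between mice.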
